A study of Rattus norvegicus with 28 samples.

Results

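The difference between strains in the response of the kidney to uninephrectomy was measured as an interaction, the change after removal of 1 kidney in SBH/y rats minus the same change in SBN/y rats. All 28 arrays of the series entered it, and it was computed for all 31042 probe sets left after 57 control probe sets were taken out of 31099. Whole-kidney RNA of female rats was hybridised to 1-colour Affymetrix arrays, with 7 arrays in each of 4 groups. SBN/y with 2 kidneys and SBH/y with 2 kidneys had a sham operation, and SBN/y with 1 kidney and SBH/y with 1 kidney had the right kidney removed. All animals ate standard chow, and kidneys were taken at 5 months of age, 4 months after the operation. SBN/y and SBH/y are the Sabra lines bred for resistance and for susceptibility to salt-induced hypertension, and SBH/y rats are also known for protein loss in the urine. No salt load is named in the labels. Whether each of the 7 arrays of a group stands for its own animal is not given in the labels, and the tests therefore weigh differences only against the spread from array to array, which may be technical.

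After loss of a kidney the remaining one enlarges and filters more per nephron. Where this load damages the filter, podocytes, the cells that wrap the glomerular capillaries, are lost or lose their slit diaphragm proteins, protein reaches the tubule, and tubule cells switch on injury genes. The kidney also has a circadian clock, in which BMAL1 with CLOCK or NPAS2 drives genes through E-boxes in their promoters, among them the period genes, the nuclear receptors Nr1d1 and Nr1d2 that repress Bmal1, and the output factor Dbp. Whole-kidney RNA is a mixture, so fewer cells of a type and less RNA per cell cannot be told apart in any value below.

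The arrays were on 1 scale, with medians of 5.72 to 5.77 and pairwise correlations of 0.985 to 0.997. As a check of the tissue, 2 kidney genes were read first. The thick ascending limb gene Umod had group means between 13.21 and 13.26, and the proximal tubule receptor gene Lrp2 had a mean of 12.50 in each group. Not every segment was level between strains, since the mean over 16 thick ascending limb genes ran from 9.06 to 9.30 in SBN/y and from 8.83 to 8.98 in SBH/y. The interaction of Lrp2 was not called, and that of Umod was -0.06 ± 0.05 (limma adjusted p 0.755). Detection over background was not measured. Of 82 called genes examined one by one, 24 were dim in at least 1 group, with a mean under every array's median, and 8 were dim in all 4, among them Areg, Ptgs2, Sult1c3, Atf3 and Ccl28, and log2 differences of such dim probe sets give no exact fold of RNA.

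Arrays stood apart in their clock genes. A clock score was computed for each array as the mean centred log2 value of Bmal1, Npas2 and Clock, 3 genes, minus that of 12 repressors and outputs of the clock. The SBH/y arrays with 2 kidneys scored 0.921 to 1.43. With 1 kidney, 6 SBH/y arrays scored -2.52 to -1.75, and replicate 2 scored 1.20, inside the range of the 2-kidney group. In SBN/y the 2-kidney arrays scored -0.338 to 0.989. The SBN/y arrays with 1 kidney scored 0.462 to 1.11 on 6 arrays and -1.73 on replicate 6. The labels give no hour at which kidneys were taken. The clock score thus moved with the interaction. With the score as a covariate limma called 0 interactions, so no call below holds in that fit, and the estimates it gave are set beside the gene groups and are called clock-adjusted.

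**Figure D1:**
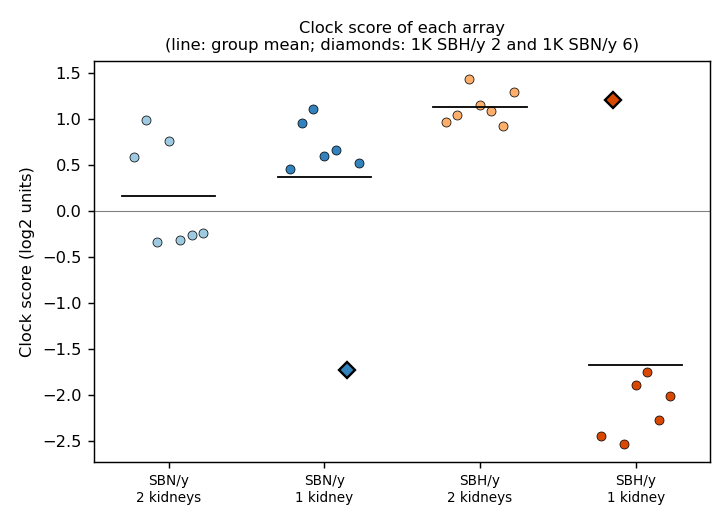
Clock score in log2 units on the y axis for each array, by group, with the group mean as a line. Of the SBH/y arrays with 1 kidney, 6 lie below -1 and replicate 2 lies at 1.20, while 1 of the 7 SBN/y arrays with 1 kidney, replicate 6 at -1.73, lies below -1.

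The interaction was called (limma, Benjamini-Hochberg adjusted p below 0.05) for 439 probe sets, 1.41% of those tested. It was positive, a change more upward in SBH/y, for 185 probe sets (0.596%) and negative for 254 (0.818%). Counted in genes, each by its brightest probe set, 137 of 14217 had a positive (0.964%) and 156 a negative interaction (1.1%), together 293 or 2.06%. Most were small, with a median size of 0.44 log2 units, and 18 positive and 16 negative probe sets reached a 2-fold difference of responses. Leaving out the SBH/y replicate 2 with 1 kidney raised the count to 870 probe sets, which held 437 of the 439. Leaving out both arrays that stand apart in the clock score, a setting chosen after seeing the data, gave 977.

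The called interactions came mainly from changes in SBH/y. The uninephrectomy effect was itself called in SBH/y for 387 of the 439 probe sets, and in 380 of these it was not called in SBN/y. An effect in SBN/y alone was called for 10. Both effects were called, in opposite directions, for 4 and in the same direction for 3, and neither for 42. Over the 439, the median size of the change was 0.37 log2 units in SBH/y and 0.10 in SBN/y. These effects share arrays with the interaction, so this division is a description. Over all probe sets the uninephrectomy effect was called for 2558 in SBH/y (8.24%) and 144 in SBN/y (0.464%).

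Seen the other way, the interaction is the change in the strain difference. Over all probe sets the strain difference was called in 17.9% with 2 kidneys and 21.5% with 1. It was called after uninephrectomy and not before it for 244 of the 439 probe sets, before and not after for 89, in both states for 103 and in neither for 3. Of the 103, it was wider after uninephrectomy in 57, narrower in 22 and turned in sign in 24. In 67 of the 439 probe sets (15.3%) all 7 SBH/y arrays with 1 kidney lay above or all lay below the other 21 arrays, against 0.596% of all probe sets. The interaction chose these 439, so nothing is read from that excess.

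**Figure D2:**
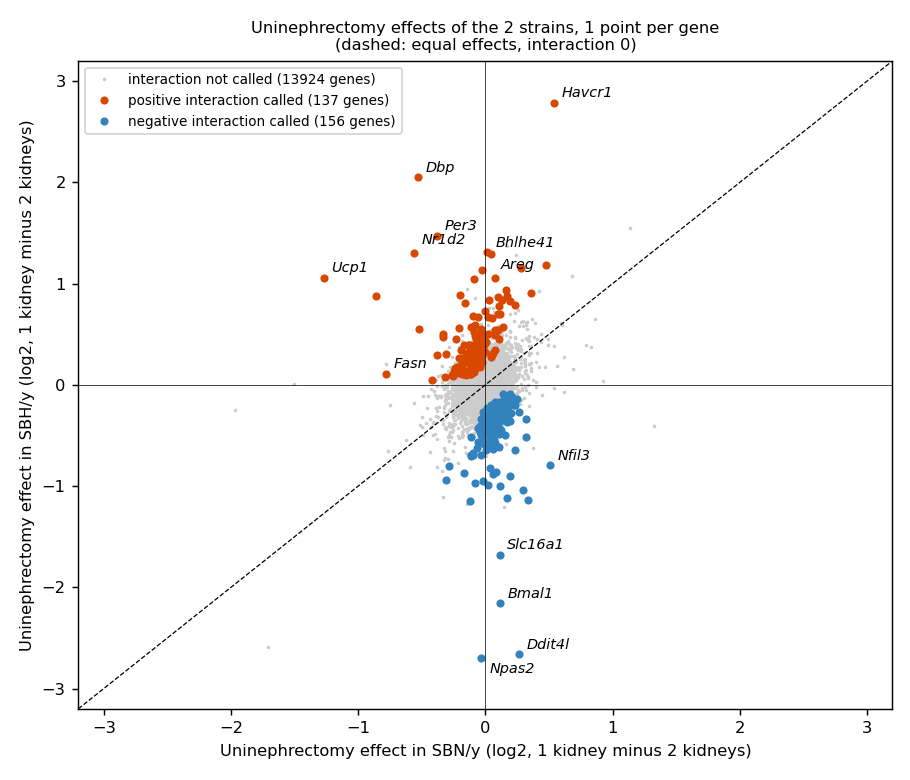
Uninephrectomy effect (log2, 1 kidney minus 2 kidneys) in SBN/y on the x axis and in SBH/y on the y axis, 1 point per gene, with the 137 positive and 156 negative called interactions in colour. Coloured genes lie mainly along the vertical axis, with Havcr1 high (SBH/y 2.79, SBN/y 0.54) and Npas2 low (SBH/y -2.70, SBN/y -0.04), while Fasn lies to the left (SBH/y 0.11, SBN/y -0.78).

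The gene lists were chosen with earlier results of these data known, so their shares here and below are descriptions and no test of enrichment. Some genes sit in several lists, among them Atf3, Timp1 and Areg. Of 28 tubular injury genes measured, 8 were called positive and 0 negative, or 28.6%, against 2.06% of all genes. Estimates were positive for 21 and negative for 7, and the list's median interaction was 0.26 (0.22 clock-adjusted) against 0.01 over all genes. Havcr1, which encodes kidney injury molecule 1 of damaged proximal tubule cells, had the largest interaction of the list. Its log2 values (lowest, median and highest) were 4.27, 4.58 and 4.86 in SBN/y with 2 kidneys and 4.38, 5.09 and 5.71 with 1. In SBH/y they were 4.36, 4.78 and 5.07 with 2 kidneys and 6.64, 7.19 and 8.81 with 1. All 7 SBH/y arrays with 1 kidney lay above the other 21 arrays. The probe set was dim in the other 3 groups, so the change gives no exact fold. It was 2.79 ± 0.23 in SBH/y (limma adjusted p 4.37e-09) and 0.54 in SBN/y (adjusted p 0.474), and the interaction was 2.25 ± 0.33 (adjusted p 0.000741, 2.10 clock-adjusted). The strains did not differ detectably with 2 kidneys (0.15, adjusted p 0.72) and differed by 2.40 with 1 (adjusted p 2.07e-09).

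Spp1, which encodes the secreted phosphoprotein osteopontin, was bright in all groups. Its medians were 11.53 and 11.67 in SBN/y with 2 and with 1 kidney, and 11.60 and 12.40 in SBH/y. The lowest SBH/y array with 1 kidney, at 12.16, lay above the highest of the other arrays, at 12.07. Its interaction was 0.77 ± 0.14 (limma adjusted p 0.00318, 0.76 clock-adjusted). Gpnmb, a membrane glycoprotein of injured tubule cells and phagocytes, had medians of 5.95 and 6.21 in SBN/y, and of 6.19 and 7.32 in SBH/y, again with no overlap of the last group and the rest. Its interaction was 0.87 ± 0.15 (adjusted p 0.00295, 0.51 clock-adjusted), and its lowest SBH/y array with 1 kidney was replicate 2 at 6.69.

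Clu, the chaperone clusterin, took another course. With 2 kidneys its SBH/y arrays, at 9.62 to 9.77, lay below all SBN/y arrays, at 10.18 to 10.60, a strain difference of -0.64 (limma adjusted p 1.17e-08). With 1 kidney the SBH/y values were 10.01 to 10.47 and the SBN/y values 10.10 to 10.57, and the difference was -0.10 (adjusted p 0.366). The interaction of Clu was 0.54 ± 0.10 (adjusted p 0.00315, 0.56 clock-adjusted). Clu had a second, dimmer probe set with an interaction of 0.24 (adjusted p 0.447).

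Timp1, an inhibitor of matrix proteases, had an interaction of 0.62 ± 0.11 (limma adjusted p 0.00442, 0.55 clock-adjusted). Areg, the EGF receptor ligand amphiregulin, had 1.24 ± 0.21 (adjusted p 0.00256, 0.46 clock-adjusted), from dim values with medians of 3.51 and 3.60 in SBN/y and of 3.94 and 5.35 in SBH/y. The SBH/y replicate 2 with 1 kidney lay at 4.10 for Areg, inside the 2-kidney range, while the other 6 lay at 4.93 to 5.74. Lcn2, another injury marker, was dim in all groups (means 3.74 to 3.85) and its interaction of 0.03 was not called (adjusted p 0.974). Ccn2, a matricellular growth signal, rose in both strains, by 0.61 in SBH/y and 0.59 in SBN/y, with an interaction of 0.02 ± 0.10 (adjusted p 0.978).

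**Figure D3:**
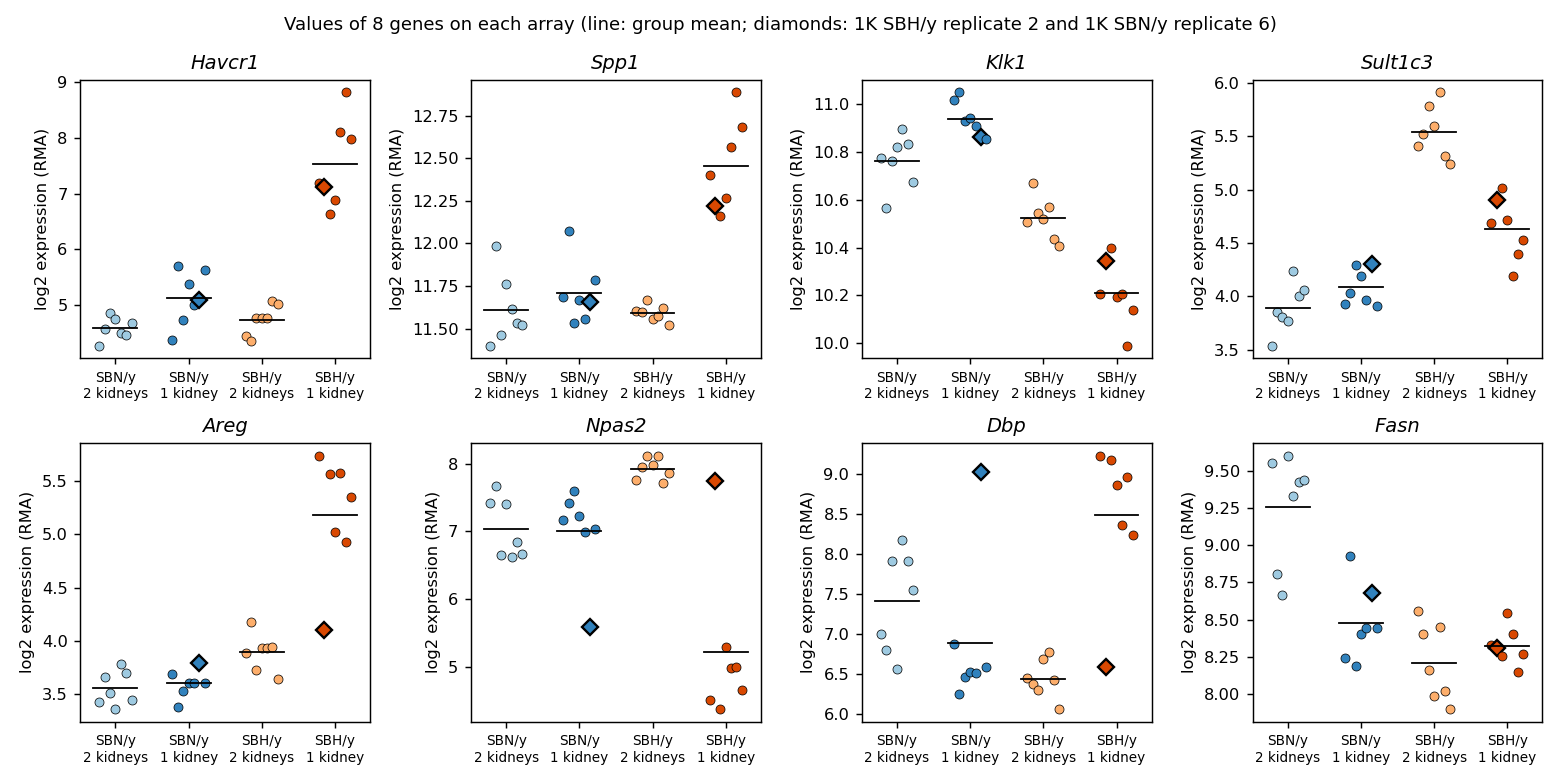
Deposited log2 values (RMA) of 8 genes on each array, by group, with group means as lines and the arrays that stand apart in clock score as diamonds. In Havcr1 and Spp1 the SBH/y diamond lies with its group, at 7.12 and 12.22, whereas in Areg, Npas2 and Dbp it lies with or next to the 2-kidney group, at 4.10, 7.74 and 6.58.

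Of 21 podocyte genes measured, 4 were called negative and 0 positive (19.0%, against 1.1% negative and 2.06% either way over all genes), with a list median of -0.10 (0.0030 clock-adjusted). The genes were Wt1, the transcription factor that maintains podocyte identity, Nphs1 (nephrin of the slit diaphragm), Plce1 (a phospholipase mutated in nephrotic syndrome) and Ptpro (a podocyte phosphatase). Wt1 had medians of 6.96 and 7.03 in SBN/y with 2 and with 1 kidney and of 7.24 and 6.72 in SBH/y. The interaction was -0.59 ± 0.10 (limma adjusted p 0.00201, -0.29 clock-adjusted), and a second Wt1 probe set had -0.39 and was not called (adjusted p 0.0724). The SBH/y arrays with 1 kidney, at 6.37 to 6.93, lay below all SBH/y arrays with 2, at 7.04 to 7.31, and overlapped the SBN/y arrays. Nphs1 had medians of 6.60 and 6.63 in SBN/y and of 6.90 and 6.31 in SBH/y, with an interaction of -0.55 ± 0.14 (adjusted p 0.0364, -0.22 clock-adjusted). The call of Nphs1 was lost in 16 of 28 fits that each left out an array, with adjusted p up to 0.0657, and its second probe set had -0.40 (adjusted p 0.123). The mean over the podocyte list ran from 7.20 to 7.41 in SBH/y arrays with 1 kidney, against 7.40 to 7.46 with 2. Replicate 2 was the highest SBH/y array with 1 kidney for Wt1, at 6.93, Nphs1, at 6.60, and Plce1, at 6.29. Endothelial genes, which the glomerulus also holds, had negative estimates in 20 of 23 and 1 call (4.35%), Ptprb, a vascular phosphatase, at -0.29 ± 0.06 (adjusted p 0.0103), with a list median of -0.08 (0.04 clock-adjusted). Their mean ran from 7.58 to 7.85 in SBH/y with 1 kidney and from 7.72 to 7.90 with 2. A second Ptprb probe set had -0.16 and was not called (limma adjusted p 0.618). The part of glomerular content in these values was not tested.

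Of 17 principal cell genes 2 were called negative, Nr3c2 and Tfcp2l1 (11.8%, against 2.06% called of all genes), with 13 negative estimates and a list median of -0.12 (also -0.12 clock-adjusted). Of 13 distal convoluted and connecting tubule genes, 1 was called positive (Fgf13) and 1 negative (Klk1), or 15.4%. That list had 6 positive and 7 negative estimates and a median of -0.02. Klk1, tissue kallikrein of the connecting tubule, had medians of 10.77 and 10.93 in SBN/y with 2 and with 1 kidney and of 10.52 and 10.20 in SBH/y. With 1 kidney every SBN/y array (10.86 to 11.05) lay above every SBH/y array (9.99 to 10.40). The interaction of Klk1 was -0.49 ± 0.08 (limma adjusted p 0.00157, -0.42 clock-adjusted). Nr3c2, the mineralocorticoid receptor, had an interaction of -0.38 ± 0.07 (adjusted p 0.00442), with SBH/y medians of 7.82 and 7.59 and SBN/y medians of 7.70 and 7.86. Tfcp2l1, a transcription factor of the collecting duct, had -0.29 ± 0.06 (adjusted p 0.0182). Of 37 proximal tubule genes, 1 was called positive (the amino acid transporter Slc7a7) and 2 negative (the organic anion transporter Slc22a7 and the peptidase Mme), or 8.11%. None of 16 thick ascending limb genes and none of 10 intercalated cell genes was called by limma, with list medians of -0.07 and -0.17. Of the intercalated cell genes 9 of 10 had negative estimates.

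Sult1c3, a sulfotransferase, had the negative interaction with the smallest adjusted p among the 12 largest. Its arrays lay at 5.24 to 5.91 in SBH/y with 2 kidneys, at 4.19 to 5.02 with 1, and at 3.54 to 4.31 in SBN/y. It fell in SBH/y by 0.90 on the log2 scale and the interaction was -1.10 ± 0.16 (limma adjusted p 0.000741), so the strain difference narrowed from 1.64 to 0.54. Atp12a, a proton pump subunit chosen after its values were seen, had a strain difference of 0.06 left with 1 kidney (adjusted p 0.778) and an interaction of -0.94 ± 0.14 (adjusted p 0.000936). Ptgs2, the inducible cyclooxygenase, had an interaction of 1.07 ± 0.21 (adjusted p 0.00634) from dim values, with medians of 5.61 and 5.03 in SBN/y and of 5.07 and 5.54 in SBH/y.

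Immune lists had positive medians, with calls to be read against 2.06% over all genes. The lowest median, 0.02 for neutrophil and mast cell genes, lay near the 0.01 of all genes. That list had 5 positive and 5 negative estimates and 0 of 10 called. Complement genes had a median of 0.08, with 1 of 21 called (4.76%), Cfi. Macrophage markers had a median interaction of 0.23 (0.09 clock-adjusted) with 0 of 28 called by limma. Their mean level ran from 6.98 to 7.36 in SBH/y with 1 kidney, from 6.91 to 7.18 with 2, and from 6.65 to 6.92 over SBN/y. T cell receptor chains Cd3e and Cd3d were called positive among 21 T lymphocyte genes (9.52%), at 0.45 ± 0.10 and 0.40 ± 0.10 (adjusted p 0.0177 and 0.0474), both from dim probe sets. A second Cd3e probe set had 0.18 and was not called (adjusted p 0.567). With 2 kidneys Cd3d lay at 3.94 to 4.62 in SBH/y and 4.48 to 4.79 in SBN/y. With 1 kidney it lay at 4.37 to 4.77 and 4.33 to 4.60. The class II peptide loading genes RT1-DMb (0.44) and RT1-DMa (0.42) were called among 23 antigen presentation genes (8.70%). With 2 kidneys RT1-DMb lay at 8.50 to 8.84 in SBH/y and 8.88 to 9.11 in SBN/y. With 1 kidney it lay at 8.62 to 9.19 and 8.86 to 9.15. For RT1-DMa these ranges were 6.81 to 7.28 and 7.23 to 7.52, then 7.15 to 7.67 and 7.36 to 7.61. In both genes SBH/y thus lay mostly lower with 2 kidneys and overlapped SBN/y with 1. Of 32 interferon response genes, Irf8, a myeloid transcription factor, at 0.52 ± 0.10 and Cxcl10, a T cell attracting chemokine, at 0.77 ± 0.17 were called (6.25%), and the list median of 0.12 was 2.79e-05 clock-adjusted. Of 32 chemokine genes 4 were called (12.5%), positive for Ccl19 (0.73), Cxcl10 and Cxcl16 (0.28) and negative for Ccl28 (-0.66). Of 8 B and plasma cell genes 1 was called, Jchain, the joining chain of secreted antibodies, at 0.71 ± 0.19 (adjusted p 0.048), a call lost in 18 of the 28 fits that each left out an array. Clock-adjusted estimates were 0.30 for Cd3e, 0.26 for Cd3d, 0.22 for RT1-DMb and RT1-DMa, 0.37 for Irf8, 0.15 for Cxcl10 and 0.67 for Jchain. List medians were 0.15 for T lymphocyte genes (0.04 clock-adjusted) and 0.16 for B and plasma cell genes (-0.03 clock-adjusted). They were 0.12 for antigen presentation genes (0.12 clock-adjusted) and 0.14 for chemokine genes (0.06 clock-adjusted). Cxcl10 in the SBH/y replicate 2 with 1 kidney was 6.73 against 7.10 to 7.61 on the other 6. The calls of Cd3d and RT1-DMa were lost in 21 and 4 of these 28 fits. The part of immune cell content in these values was not tested.

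Of 40 collagen, laminin and matrix genes, 3 were called positive (Col1a1, Col15a1 and Lama1) and 1 negative (the crosslinking enzyme Lox, -0.61 ± 0.14, limma adjusted p 0.0242), or 10% against 2.06% of all genes. Col1a1, the main chain of type I collagen, had 0.49 ± 0.13 (adjusted p 0.0397), and its second probe set had 0.09 (adjusted p 0.869). Mmp12, macrophage elastase, had 1.09 ± 0.21 (adjusted p 0.00541) and the protease Adamts1 had 0.55 ± 0.12 (adjusted p 0.012), while Adamts5 had -0.53 ± 0.14 (adjusted p 0.0485). Mmp12 was dim in all groups except SBH/y with 1 kidney. Its SBH/y replicate 2 with 1 kidney, at 4.99, lay inside the 2-kidney range of 4.61 to 5.19, and the rest of its group lay at 5.56 to 6.52. Second probe sets of Lox (-0.16, adjusted p 0.766), Col15a1 (0.34, adjusted p 0.366) and Adamts5 (-0.35, adjusted p 0.105) were not called either. The calls of Col15a1, Col1a1 and Adamts5 were lost in 20, 18 and 21 of those 28 fits. Clock-adjusted estimates were 0.18 for Col1a1, 0.10 for Col15a1, -0.19 for Lox, 0.45 for Mmp12, 0.55 for Adamts1 and -0.40 for Adamts5.

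Among 27 genes of the integrated stress response, Mthfd2 (mitochondrial folate enzyme), Atf3 and Asns (asparagine synthetase) were called positive, at 0.59, 0.48 and 0.45 (0.27, 0.53 and 0.30 clock-adjusted), 11.1% of the list against 2.06% of all genes, with a list median of 0.17 (0.15 clock-adjusted). Mthfd2 was dim in all groups except SBH/y with 1 kidney. Among 23 endoplasmic reticulum chaperones and partners, Herpud1 and Sdf2l1 were called (8.70%), and the calls of Asns and Sdf2l1 were each lost in 21 of the 28 fits. Herpud1, a protein of endoplasmic reticulum associated degradation, had medians of 9.16 and 9.29 in SBN/y and of 8.97 and 9.96 in SBH/y. Its interaction was 0.71 ± 0.14 (limma adjusted p 0.00634, 0.21 clock-adjusted). The SBH/y replicate 2 with 1 kidney, at 9.52, and the SBN/y replicate 6 with 1 kidney, at 9.86, each lay apart from the other 6 of their group, at 9.93 to 10.10 and 9.02 to 9.38. Hspa1a, the inducible HSP70, was named after its values were seen and rose in both strains, by 0.91 in SBH/y and 0.36 in SBN/y, with an interaction of 0.55 ± 0.09 (adjusted p 0.00177). Its clock-adjusted estimate was 0.48. Of 16 cytosolic heat shock genes measured, a list that does not hold Hspa1a, limma called 0 in the interaction, 10 had negative estimates, and the median was -0.07, with a median change of 0.08 in SBH/y and 0.18 in SBN/y.

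Of 15 fatty acid synthesis genes, only Fasn, fatty acid synthase, was called (6.67%, against 2.06% of all genes), and its change lay in SBN/y. It had values of 8.67 to 9.60 in SBN/y with 2 kidneys and 8.19 to 8.92 with 1, which overlapped in their extremes, and of 7.90 to 8.56 and 8.15 to 8.55 in SBH/y. Fasn fell in SBN/y by 0.78 on the log2 scale (limma adjusted p 0.00433), with 0.11 in SBH/y (adjusted p 0.69), and the interaction was 0.89 ± 0.18 (adjusted p 0.0098). A second Fasn probe set had 1.13 (adjusted p 0.0124). The strain difference of Fasn was -1.04 with 2 kidneys and -0.15 with 1. Of 20 cholesterol synthesis genes, 2 were called (10%), with 18 positive estimates, 2 negative ones and a list median of 0.20. These were Fdps (0.40 ± 0.09, adjusted p 0.0134) and Mvk (0.22 ± 0.06, adjusted p 0.0398), with no called effect in either strain. The call of Mvk was lost in 18 of the 28 fits, and its other probe sets had 0.12 and -0.02 (limma adjusted p 0.65 and 0.984).

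Ucp1, the uncoupling protein of brown fat, had an interaction of 2.33 ± 0.54 (limma adjusted p 0.0222). Its arrays spread from 6.55 to 8.94 in SBN/y with 2 kidneys, 5.12 to 8.85 with 1, 4.71 to 6.76 in SBH/y with 2 and 5.76 to 7.14 with 1, and neither strain's effect was called (1.06 in SBH/y, adjusted p 0.0861, and -1.27 in SBN/y, adjusted p 0.162). Of 16 adipose tissue genes measured, 1 was called, Ucp1 itself (6.25%, against 2.06% of all genes), with a list median of 0.10. The fat hormone gene Adipoq had an interaction of 0.11 and the lipid droplet gene Plin1 of 0.29, neither called. The mean adipose level ran from 5.93 to 6.78 and from 5.73 to 6.78 in SBN/y, and from 5.99 to 6.19 and from 5.83 to 6.21 in SBH/y, for 2 kidneys and 1. The part of fat tissue in the Ucp1 result was not tested.

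A few genes had called effects in both strains or in SBN/y alone, and of these Slc16a7, Cyp4v3, Asb9, Zfp703 and Sorbs2 were picked after their values were seen. Ccl28, an epithelial chemokine, rose in SBN/y by 0.32 and fell in SBH/y by 0.34 on the log2 scale, and the interaction was -0.66 ± 0.10 (limma adjusted p 0.000741). Its values of 5.07 to 5.48 and 5.44 to 5.79 in SBN/y, and of 5.49 to 5.71 and 5.08 to 5.47 in SBH/y, overlapped within SBN/y and did not overlap within SBH/y. Slc16a7, a pyruvate and lactate transporter, rose in SBN/y by 0.26 and fell in SBH/y by 0.27, and Cyp4v3, a fatty acid hydroxylase, by 0.22 and 0.19. Asb9 fell in both, by 0.80 in SBH/y and 0.29 in SBN/y. Lama1, Zfp703, Slc7a7 and Fasn fell and Sorbs2 rose in SBN/y alone among called effects, while the SBH/y estimates of these 5 lay between -0.09 and 0.13. A second, dim probe set of Cyp4v3 had an interaction of -0.12 and was not called (limma adjusted p 0.781).

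**Figure D4:**
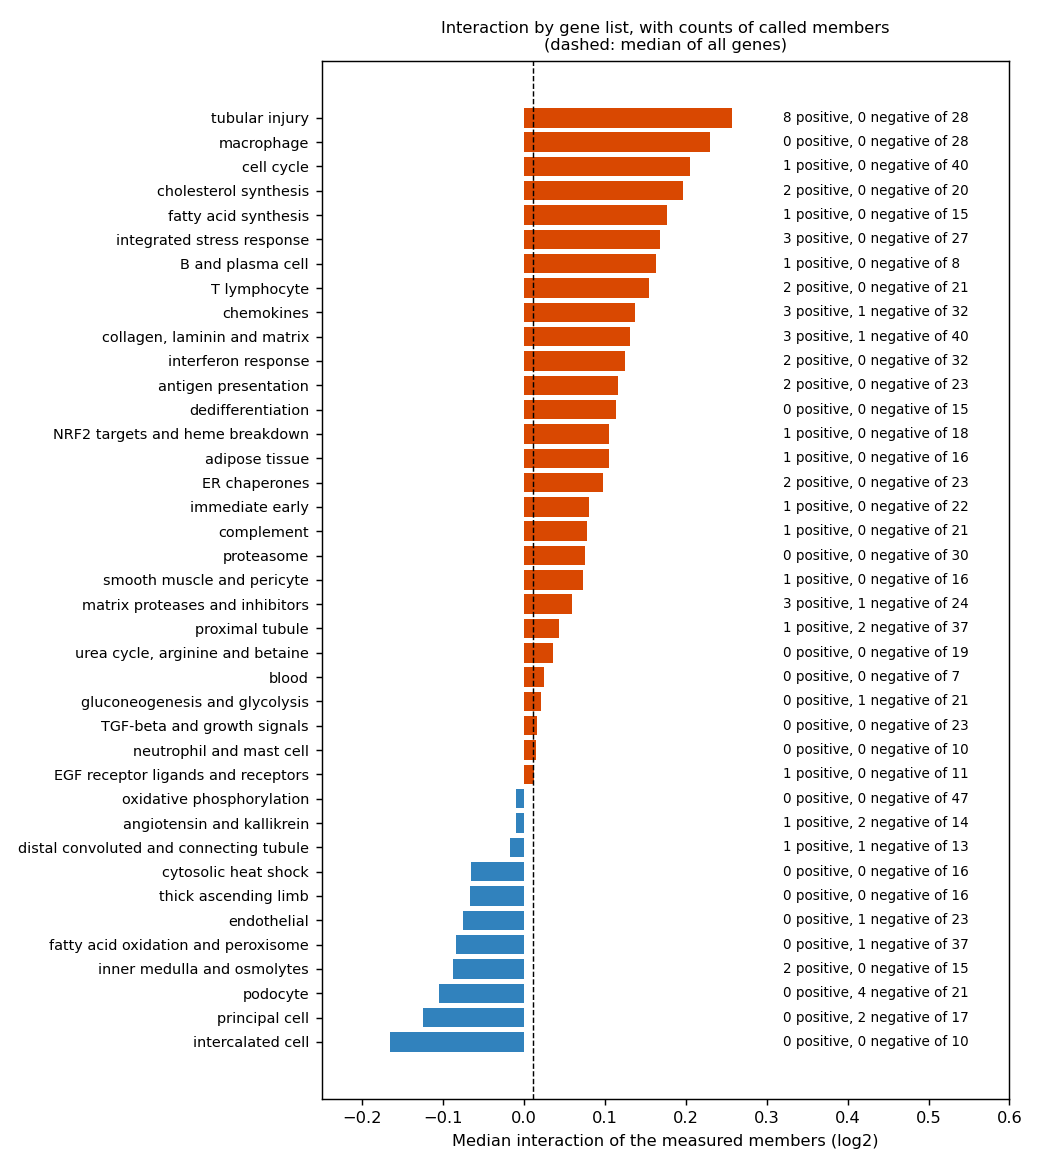
Median interaction (log2) of the measured members of each gene list on the x axis, with counts of members called positive and negative, clock lists left out. Tubular injury has the highest median, 0.26 with 8 positive calls of 28, and intercalated cell the lowest, -0.17 with 0 calls of 10, against 0.01 over all genes.

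Clock genes had interactions of either sign. Of 12 repressors and outputs, 6 were called positive and 0 negative (50%, against 2.06% of all genes), with a median of 1.17. A second list, of activators, also counts the repressors Nfil3 and Cry1. Of its 5 measured genes, 3 (Bmal1, Npas2 and Nfil3) were called negative and 0 positive (60%), with a median of -1.30. The lists therefore do not separate activators from repressors. Dbp, an output transcription factor, had medians of 7.55 and 6.52 in SBN/y with 2 and with 1 kidney and of 6.42 and 8.87 in SBH/y, with an interaction of 2.58 ± 0.51 (limma adjusted p 0.00703). The SBN/y replicate 6 with 1 kidney lay at 9.03 and the other 6 at 6.24 to 6.87, and the SBH/y replicate 2 lay at 6.58 and the other 6 at 8.24 to 9.23. Npas2 had -2.67 ± 0.48 (adjusted p 0.00385) and Bmal1 had -2.27 ± 0.47 (adjusted p 0.0103). For Bmal1 the SBH/y replicate 2 lay at 7.52 and the other 6 at 4.41 to 5.20, and the SBN/y replicate 6 lay at 4.95 and the other 6 at 6.79 to 7.28. Cry1 had -0.58 ± 0.30 and was not called (adjusted p 0.46). The calls of Nr1d1 and Bhlhe41 were lost in 17 and 21 of the 28 fits.

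The clock loop runs through short elements in promoters, and some are shown for the genes just described. The promoter of Bmal1 is shown because it holds a spelling of the element of the ROR and NR1D receptors, AGTAGGTNA, in 2 copies. Other spellings of that element were not counted. Those of Nr1d1, Tef and Bhlhe41 are shown for the E-box CACGTG. Each is the 250 bases before the start in RefSeq, build GRCr8, read on the gene's strand from 5′ to 3′, with the element in capitals. Nr1d1 has more than 1 start, and the window with the element is given. The windows were chosen after the search because they hold an element, and searches for a D-box and an endoplasmic reticulum stress element are not reported. Coordinates are chr1:176766078-176766327 on the plus strand for Bmal1, chr10:84229455-84229704 on the minus strand for Nr1d1, chr7:115206577-115206826 on the plus strand for Tef and chr4:180569356-180569605 on the minus strand for Bhlhe41.
Bmal1: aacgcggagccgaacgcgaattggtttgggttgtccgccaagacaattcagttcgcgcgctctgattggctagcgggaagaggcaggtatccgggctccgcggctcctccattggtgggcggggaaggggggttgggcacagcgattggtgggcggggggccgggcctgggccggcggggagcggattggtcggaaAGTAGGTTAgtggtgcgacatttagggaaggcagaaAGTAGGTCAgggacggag
Nr1d1: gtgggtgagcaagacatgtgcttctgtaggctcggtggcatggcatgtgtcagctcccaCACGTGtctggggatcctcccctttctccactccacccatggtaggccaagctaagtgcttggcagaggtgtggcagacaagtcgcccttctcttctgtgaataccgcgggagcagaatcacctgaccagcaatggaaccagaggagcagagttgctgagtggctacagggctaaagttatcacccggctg
Tef: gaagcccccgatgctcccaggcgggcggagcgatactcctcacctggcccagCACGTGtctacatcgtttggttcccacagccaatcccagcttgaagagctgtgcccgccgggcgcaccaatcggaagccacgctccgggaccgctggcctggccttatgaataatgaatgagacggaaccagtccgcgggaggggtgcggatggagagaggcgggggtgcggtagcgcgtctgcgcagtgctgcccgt
Bhlhe41: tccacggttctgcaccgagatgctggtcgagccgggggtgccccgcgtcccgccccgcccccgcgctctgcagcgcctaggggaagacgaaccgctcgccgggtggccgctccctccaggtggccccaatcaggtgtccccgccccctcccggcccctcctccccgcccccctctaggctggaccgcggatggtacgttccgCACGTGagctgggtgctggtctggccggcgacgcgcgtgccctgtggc

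Searched on both strands, the E-box was found in 5.59% of 33469 promoter windows and the spelling AGTAGGTNA in 0.511%. Of measured genes with a promoter, 8.22% held the E-box, against 13.4% of 112 with a positive and 9.09% of 121 with a negative called interaction. Of the clock repressors and outputs with a promoter window, 4 of 11 held the E-box (Nr1d1, Tef, Bhlhe41 and Bhlhe40). A match is a description of letters and not a bound site.

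Other genes with wide negative interactions lay apart in the same arrays. Ddit4l, a regulator of mTOR signalling, had -2.93 ± 0.55 (limma adjusted p 0.0053), and Slc16a1, a lactate transporter, had -1.79 ± 0.39 (adjusted p 0.0131). For Slc16a1 the SBH/y replicate 2 with 1 kidney lay at 9.73 and the other 6 at 7.24 to 7.89, beside 9.17 to 9.81 with 2 kidneys. A second, dim probe set of Slc16a1 had -0.01 (adjusted p 0.984). Over the 387 probe sets with a called SBH/y effect, replicate 2 lay inside the 2-kidney range in 183 (47.3%), against 16 to 46 for each of the other 6 arrays. Its median shift was 34.7% of that of the other 6. Over the 439, the SBN/y replicate 6 lay beyond its group in the direction of the interaction in 191 (43.5%), against 26 to 72 for the others.

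The fit with the clock score as a covariate had a lowest adjusted p of 0.131 and 1573 probe sets (5.07%) at an unadjusted p below 0.05. The score is built from clock genes and differs between the groups compared, so clock genes lose their interaction in this fit by construction, and the standard errors were 1.38 times as large at the median. Of the 439, 425 kept their sign and 14 turned it, and the median estimate was 0.595 of its former size. In 134 of the 439 the estimate kept its sign and at least 0.75 of its size, and in 70 its size was under 0.25 of the former. The genes named next are examples and do not reflect these shares. Estimates stayed near their former size for Havcr1 (2.10), Ucp1 (2.36), Ptgs2 (1.26), Sult1c3 (-1.13), Spp1 (0.76), Clu (0.56), Fasn (0.83), Klk1 (-0.42) and Nr3c2 (-0.45). They shrank for Areg (0.46), Herpud1 (0.21), Wt1 (-0.29), Nphs1 (-0.22), Cxcl10 (0.15) and Slc16a1 (0.03). Without both arrays that stand apart, the interactions of Havcr1, Spp1, Wt1 and Nphs1 were 2.31, 0.80, -0.67 and -0.65 (adjusted p 0.00013, 0.00082, 2.7e-05 and 0.0034). Those arrays were left out after the data were seen, for clock scores opposite to their groups. Wider estimates with smaller p could thus be expected in that fit, and it gives the calls no support. What part of the interaction goes with clock phase and what part with the response to uninephrectomy cannot be told apart beyond these values.

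**Figure D5:**
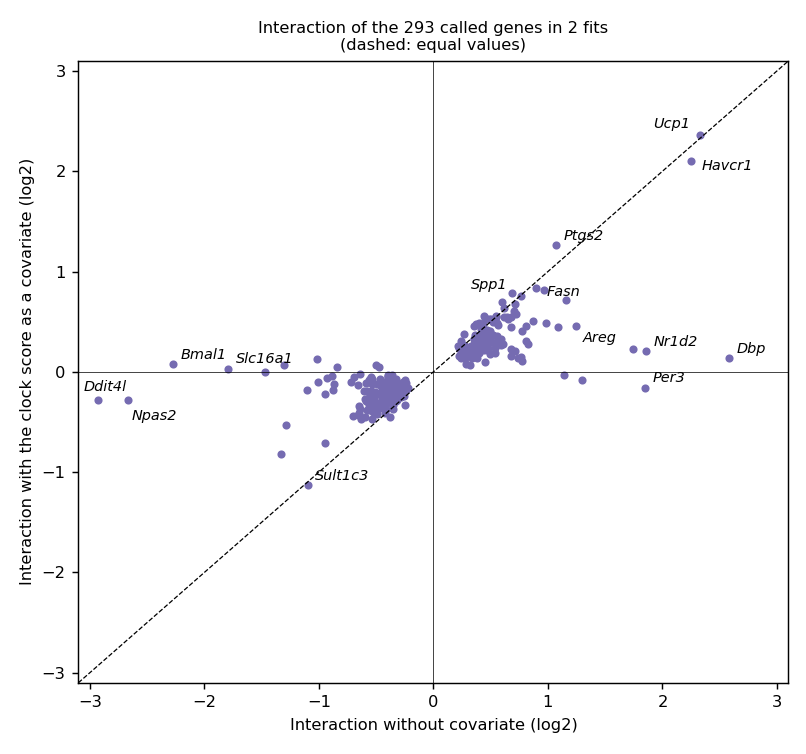
Interaction (log2) of the 293 called genes without a covariate on the x axis and with the clock score as a covariate on the y axis, with equal values on the dashed line. Havcr1 (2.25 and 2.10), Ucp1 and Sult1c3 (-1.10 and -1.13) lie at the line, while Dbp (2.58 and 0.14), Bmal1 and Slc16a1 lie near 0 on the y axis.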

How the data were processed

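The authors deposited 1 table of log2 values for 31099 probe sets on 28 arrays. Per the submitters' processing notes the tools were GCOS and RMA, of unstated version. The RMA method corrects background, quantile-normalizes and summarises probes, so a difference in total RNA cannot be seen. The number of arrays limits the precision. Probe sets took symbols from the platform annotation, updated through RefSeq's table for GRCr8; of 31042, 20826 had 1 symbol, 436 several and 9780 none. A gene is its brightest probe set.

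The 4 group means were fitted to all arrays with limma 3.58.1 in R 4.3.3 (lmFit, eBayes), with Benjamini-Hochberg adjustment over 31042 probe sets and a threshold of 0.05. The value after ± is limma's standard error. Examined singly were the 12 largest called interactions each way, up to 6 called members of each described list with the smallest p, a panel and the clock genes, 92 genes, and 11 more chosen after their values were seen. The members, the 41 lists and the clock score were chosen with earlier results of these data known. The fit was tested on simulated data. Alternatives changed normalization, dim probe sets (40% left out), variance model, array weights, scale, the replicate number as a block, the clock score as a covariate, and single arrays.

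Same-numbered arrays of different groups had a median correlation of deviations of 0.16 (-0.09 to 0.59), with 24 of 42 pairs over 0.1. Differently numbered arrays had a median of -0.03. The main fit did not use the numbers, so it leaves out whatever same-numbered arrays share. With the number as a block, 812 interactions were called in place of 439. What the numbers stand for was not tested.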

Additional observations from a re-analysis of the deposited data

Results flagged for a closer look

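The interaction itself is a difference between strains in the response to uninephrectomy, and 439 probe sets had it at an adjusted p below 0.05 in limma. In Ccl28 (-0.66), Slc16a7 (-0.54) and Cyp4v3 (-0.42) the effects of the strains were both called, in opposite directions. A second, dim probe set of Cyp4v3 had -0.12 and was not called.

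Single arrays lay far from the other 6 of their group in 35 of 160 groups of log2 values, over 40 genes (a gap above 0.568 of the group's range). Chance sets apart about 1 in 20 groups. The SBH/y replicate 2 with 1 kidney stood apart in 12 genes, with Dbp at 6.58, Nr1d2 at 7.59, Per3 at 5.31, Tef at 6.97, Ddit4l at 9.37, Npas2 at 7.74, Bmal1 at 7.52, Slc16a1 at 9.73, Rnf125 at 7.08, Nfil3 at 7.31, Wsb1 at 9.53, LOC100912188 at 6.99. The SBN/y replicate 6 with 1 kidney stood apart in 11 genes, with Dbp at 9.03, Per3 at 7.71, Bhlhe41 at 7.59, Tef at 8.03, Ddit4l at 5.77, Npas2 at 5.58, Bmal1 at 4.95, Slc16a1 at 6.79, Nfil3 at 5.54, LOC100912188 at 5.89, Agt at 4.12. Each of these arrays has a clock score unlike the rest of its group, at 1.20 and -1.73.

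The other 12 were spread over 10 arrays, with Ucp1 at 6.55 in SBN/y replicate 3 with 2 kidneys, PCOLCE2 at 7.04 in SBH/y replicate 2 with 2 kidneys, Mlana at 6.82 in SBN/y replicate 5 with 2 kidneys, Lcn2 at 4.08 in SBN/y replicate 7 with 1 kidney, Lcn2 at 4.24 and Clu at 10.47 both in SBH/y replicate 6 with 1 kidney, Nphs1 at 6.92 and Col1a1 at 7.20 both in SBN/y replicate 2 with 2 kidneys, Kl at 6.84 in SBN/y replicate 1 with 2 kidneys, Kl at 8.31 in SBN/y replicate 5 with 1 kidney, Umod at 13.18 in SBH/y replicate 7 with 1 kidney and Timp1 at 6.74 in SBN/y replicate 7 with 2 kidneys.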

How the results depend on the processing

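The interaction count of 439 was within 1.5 times of itself under 6 alternatives (368 to 644) and rose to 899 with array weights, 812 with the replicate block and 977 without both arrays that stand apart in clock score. It was 0 with the clock score as a covariate. Leaving out each array in turn gave 306 to 870 (highest without SBH/y replicate 2 with 1 kidney), and 263 probe sets were called in all 28 such fits. The replicate block held 436 of the 439. The count in SBH/y, 2558, was 58 with the clock covariate and 1925 to 3145 with arrays left out in turn. That in SBN/y, 144, was 225 with array weights, 280 with the replicate block, 88 without variance moderation and 62 to 167 with arrays left out. With the clock covariate the interaction turned sign for Per3 (-0.16), Bhlhe41 (-0.085), Tef (-0.035), Bmal1 (0.076), Slc16a1 (0.033), Rnf125 (0.0014), Nfil3 (0.067) and LOC100912188 (0.12); these include genes of the score. Of 82 named called genes, 58 kept the call in all 28 fits. Of 24 other probe sets of 20 of them, 6 were called the same way and 2 had the opposite sign, and 0 were called opposite. Dim probe sets have no measured signal over background.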
